A study of Mus musculus with 8 samples.

Results

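The genes that flank Tm6sf2 were examined in livers of knock-in mice that carry the E167K variant of Tm6sf2 and of wild type littermates. In human association studies of plasma lipids this stretch of the genome gave one signal over many genes, long named after NCAN, CILP2 or PBX4, before the coding variant of TM6SF2 was put forward. The 10 listed neighbours were chosen by name, with earlier results of these data known. They were Atp13a1, Pbx4, Cilp2, Gatad2a, Mau2, Sugp1, Hapln4, Ncan, Rfxank and Nr2c2ap. Of these, 9 had a probe set annotated with their symbol alone, out of 22180 genes with such a probe set on the array. Nr2c2ap had none.

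Liver RNA was on 4 arrays labelled wild type and 4 labelled knock-in, all from male mice and labelled as strain C57BL/6J. The labels call the variant a knock-in and give no Cre driver, age, zygosity or way the allele was made. Diet was the same label for all 8 samples but is contradictory: 20 weeks on high fat per the series text, but 14 weeks on chow or on sucrose without fat per the treatment protocol. Whether each array stands for its own animal is not stated, so p-values reflect only how these samples vary, which may be technical.

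The neighbours have unrelated jobs. Gatad2a is a subunit of the NuRD complex, which removes histone acetyl groups and slides nucleosomes. Mau2 and Nipbl together load cohesin, the ring that holds DNA loops and sister chromatids, and Sugp1 acts in the recognition of splice sites beside Sf3b1. Rfxank is part of the RFX factor that switches on MHC class II genes, and Nr2c2ap binds the orphan nuclear receptor Nr2c2. Atp13a1 is a transporter of the endoplasmic reticulum that pulls misplaced membrane segments out of that membrane. Ncan (neurocan) and Hapln4 belong to the hyaluronan matrix of brain, Cilp2 to the matrix of cartilage, and Pbx4 is a homeobox factor best known from testis.

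None of the 6 tested neighbours passed the test for a difference between knock-in and wild type liver. The test was limma's moderated test on the deposited log2 values, with p-values adjusted by Benjamini-Hochberg over all 13449 tested genes and a threshold of 0.05. Of the 9 measured neighbours, 6 were bright enough to test (Gatad2a, Mau2, Sugp1, Atp13a1, Rfxank and Hapln4), and 3 lay at the dim end of the arrays (Ncan, Cilp2 and Pbx4). Past the threshold were 0 of 6, where 0.0669% of all tested genes passed. At an unadjusted limma p under 0.05 there were also 0 of 6 in this fit, beside 11.3% of all tested genes. Groups that did not overlap were found in 0 of 6, beside 7.16% of all tested genes. A change was above 0 in 3 of the 6 and below 0 in 3 (4 and 2 with arrays shifted to a common median, where Mau2 turned), with a median of 0.02 on the log2 scale, and the median over all tested genes was 0.0046. Single arrays decided that split: 5 of 6 were above 0 with a median of 0.07 without wild type replicate 3, and 2 of 6 with a median of -0.01 without knock-in replicate 4. Without knock-in replicate 3 the median was 0.09, and without wild type replicate 2 it was 0.0028.

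The arrays were alike. Array medians ran from 3.73 to 3.80 on the log2 scale, and any pair of arrays correlated at 0.973 to 0.980 over all probe sets. Hepatocyte markers were bright throughout, with a list mean of 12.0 to 12.1 in every array. The limit under which a value was called dim, the 40th percentile of each array, lay between 3.46 and 3.50.

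**Figure D1:**
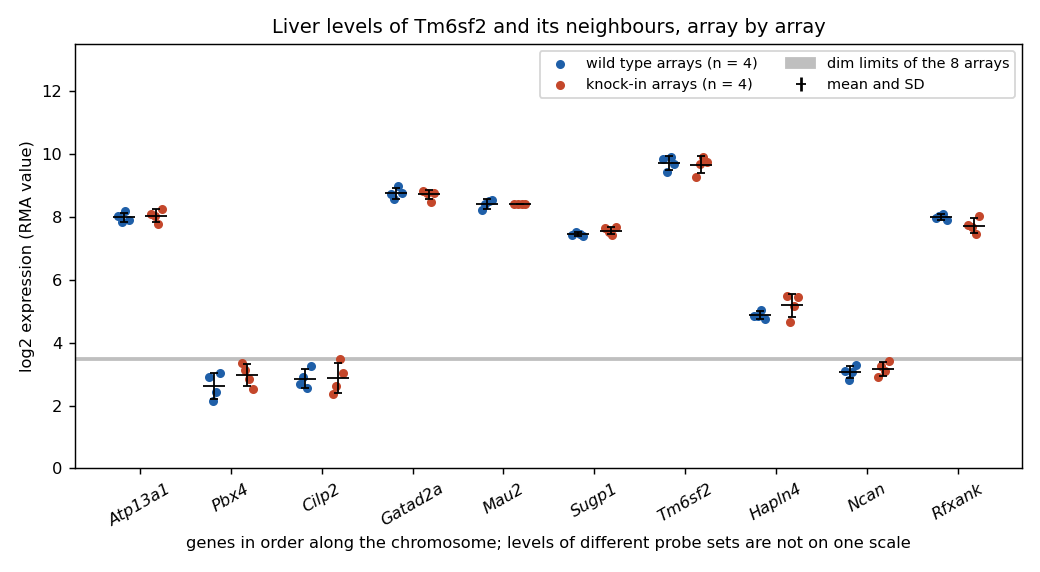
Log2 expression values of Tm6sf2 and its 9 measured neighbours in each array, with group means and SD (n = 4 wild type, n = 4 knock-in) and a grey band for the dim limits of the arrays. Points of both genotypes lie over each other for most genes, Rfxank has 3 knock-in arrays under the wild type range, Hapln4 has 3 above it, and Ncan, Cilp2 and Pbx4 lie at or under the grey band.

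Tm6sf2 itself read 9.85, 9.43, 9.92 and 9.68 in wild type replicates 1 to 4 and 9.27, 9.69, 9.90 and 9.76 in knock-in replicates 1 to 4. The change of -0.06 (SE 0.16) had a limma adjusted p of 0.928. A coding variant need not alter the level of its transcript, so this value does not check the genotype labels.

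Rfxank and Hapln4 had the smallest p-values among the neighbours, in opposite directions. Rfxank lies on one side of Ncan and Hapln4 on the other, between Ncan and Tm6sf2. Wild type replicates 1 to 4 had Rfxank values of 7.96, 8.02, 8.10 and 7.90, and the knock-in replicates had 7.73, 7.67, 7.45 and 8.04. Knock-in replicates 1 to 3 lay below every wild type array, while replicate 4 lay inside the wild type range. The group means were 7.99 ± 0.09 and 7.72 ± 0.24 (SD, n = 4 each). The change was -0.27 (SE 0.13), which is 0.83 times the wild type level with a 95% interval of 0.680 to 1.01 times (limma adjusted p = 0.457, unadjusted p = 0.0599). With knock-in replicate 4 left out, Rfxank was at -0.38 with an unadjusted limma p of 0.0074 and an adjusted p of 0.259. Its unadjusted limma p was under 0.05 in 4 of the 17 alternatives. Besides that fit these were the stricter filter (0.048), a trended prior (0.041) and a trended and robust prior (0.037). Over the 17 alternatives its adjusted p ran from 0.259 to 0.669. Rfxank did not pass in any of them.

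A further probe set, 17501810, is annotated with both Rfxank and Nr2c2ap and was given to neither gene. It read 6.14, 5.97, 6.20 and 5.92 in wild type replicates 1 to 4 and 6.35, 6.04, 6.05 and 6.48 in knock-in replicates 1 to 4. Its difference of 0.17 had the opposite sign to the probe set of Rfxank alone. In the gene order of RefSeq, Nr2c2ap and Rfxank follow each other directly.

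The promoter window of Rfxank is printed because this gene had the smallest p among the neighbours. It comes from RefSeq, build GRCm38.p6, chr8:70139148-70139447 on the minus strand, and covers 250 bases before to 50 bases after the annotated start. Capitals mark CG dinucleotides.
Rfxank: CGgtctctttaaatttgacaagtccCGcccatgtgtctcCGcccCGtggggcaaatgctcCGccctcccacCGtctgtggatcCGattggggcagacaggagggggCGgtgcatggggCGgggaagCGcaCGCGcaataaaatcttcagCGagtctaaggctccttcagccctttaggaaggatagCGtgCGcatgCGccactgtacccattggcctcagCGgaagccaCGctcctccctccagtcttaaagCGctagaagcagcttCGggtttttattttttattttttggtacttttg
The Rfxank window holds 20 CG dinucleotides. The windows were searched on both strands for the TATA box core TATAAA, for the CCAAT box of NFY factors, for the GC box GGGCGG of SP factors and for the ETS site core CCGGAAG. The Rfxank window held the CCAAT box, which 37.4% of all 32851 promoter windows in that table hold, and the GC box, which 35.7% hold. A match of letters is a description and does not show that a factor binds there.

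Hapln4, a link protein that ties lecticans to hyaluronan in the nets around neurons, read 4.84, 4.85, 5.04 and 4.75 in wild type replicates 1 to 4. It read 5.47, 4.67, 5.17 and 5.45 in knock-in replicates 1 to 4. Knock-in replicates 1, 3 and 4 lay above every wild type array, and knock-in replicate 2 lay below every one. The change was 0.32 (SE 0.17), or 1.25 times with a 95% interval of 0.950 to 1.64 times (limma adjusted p = 0.532). The knock-in spread (SD 0.37) was wider than the wild type spread (SD 0.12), and the difference in spread was not tested. Without knock-in replicate 2 the Hapln4 change was 0.49 with an unadjusted limma p of 0.0028 and an adjusted p of 0.295. Its adjusted p ran from 0.295 to 0.712 over the 16 alternatives that tested it.

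The genes on the other side of Tm6sf2 are Sugp1, then Mau2, then Gatad2a. Sugp1, the immediate neighbour, read 7.42, 7.53, 7.45 and 7.40 in wild type replicates 1 to 4 and 7.63, 7.52, 7.42 and 7.69 in knock-in replicates 1 to 4. Knock-in replicates 1 and 4 were above the wild type range and the others inside it. The Sugp1 change was 0.11 (SE 0.09), or 1.08 times with a 95% interval of 0.944 to 1.24 times (limma adjusted p = 0.677). Sugp1 was among the steadier genes, with a pooled SD within groups of 0.09, where the median of all tested genes was 0.19.

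Mau2 had equal group means. Its wild type values were 8.20, 8.42, 8.51 and 8.53, and its knock-in values were 8.41, 8.41, 8.42 and 8.42, all inside the wild type range. The means were 8.42 ± 0.15 and 8.42 ± 0.0054 (SD, n = 4 each), and the difference of -0.00025 (SE 0.09) had a 95% interval of 0.865 to 1.16 times (limma adjusted p = 0.999).

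Sugp1 and Mau2 start close together and run in opposite directions, with annotated starts 53 bases apart in RefSeq. Their promoter windows share 152 bases, identical on opposite strands. The window of Sugp1 (chr8:70042537-70042836, plus strand, GRCm38.p6) is printed because it takes in the start of both genes, with CG dinucleotides in capitals.
Sugp1: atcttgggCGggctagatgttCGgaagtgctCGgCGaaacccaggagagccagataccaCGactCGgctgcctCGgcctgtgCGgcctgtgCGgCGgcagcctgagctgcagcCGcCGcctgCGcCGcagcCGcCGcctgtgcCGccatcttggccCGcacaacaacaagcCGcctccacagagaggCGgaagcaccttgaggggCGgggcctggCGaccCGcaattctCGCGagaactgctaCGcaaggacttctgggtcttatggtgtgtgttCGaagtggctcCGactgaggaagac
It holds 28 CG dinucleotides, the most of the neighbours' windows, and the GC box. Neither gene of this pair passed the test in the knock-in, with Sugp1 at 0.11 and Mau2 at -0.00025.

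Gatad2a read 8.74, 8.56, 8.98 and 8.75 in wild type replicates 1 to 4 and 8.84, 8.76, 8.49 and 8.78 in knock-in replicates 1 to 4. Only knock-in replicate 3 fell outside the wild type range, below it. The Gatad2a change was -0.04 (SE 0.12), or 0.972 times with a 95% interval of 0.808 to 1.17 times (limma adjusted p = 0.937). Leaving out wild type replicate 3 or knock-in replicate 3 turned its sign, to 0.034 and 0.035.

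Atp13a1 is the listed neighbour farthest from Tm6sf2, with 10 protein-coding genes between them. It read 8.02, 7.85, 8.19 and 7.89 in wild type replicates 1 to 4 and 8.11, 8.02, 7.76 and 8.25 in knock-in replicates 1 to 4. The groups overlapped, with 1 knock-in array above the wild type range and 1 below it. The Atp13a1 change was 0.05 (SE 0.12), or 1.03 times with a 95% interval of 0.851 to 1.26 times (limma adjusted p = 0.928), and it was -0.02 without knock-in replicate 4.

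Among the tested neighbours the same knock-in arrays tended to hold the extremes. Knock-in replicate 3 was the lowest knock-in array for Sugp1, Gatad2a, Rfxank and Atp13a1, 4 of 6, and over all tested genes it was the lowest in 24.6%. Knock-in replicate 4 was the highest for Sugp1, Rfxank and Atp13a1, 3 of 6, beside 27.0% of all tested genes. In the wild type group, replicate 3 was the highest for Gatad2a, Hapln4, Rfxank and Atp13a1, beside 26.4% of all tested genes. These counts describe 6 genes measured in the same RNA samples and were not tested.

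Ncan, Pbx4 and Cilp2 were dim, unlike Hapln4, which lay above the limit in 8 of 8 arrays. Ncan had 2 probe sets of its own. The brighter one read 3.10, 2.81, 3.07 and 3.30 in wild type replicates 1 to 4 and 2.89, 3.26, 3.09 and 3.43 in knock-in replicates 1 to 4, with 0 of 8 arrays above the dim limit. Pbx4 read 2.92, 2.15, 2.43 and 3.03 in wild type replicates and 3.36, 3.14, 2.85 and 2.53 in knock-in replicates, also with 0 of 8 above the limit. Cilp2 read 2.68, 2.91, 2.56 and 3.24 in wild type replicates and 2.36, 2.64, 3.48 and 3.02 in knock-in replicates, and only knock-in replicate 3 touched the limit. Such values are near the floor of the arrays, so differences of 0.10 for Ncan, 0.34 for Pbx4 and 0.02 for Cilp2 are given without a test. Fitted with no filter on dim genes, their limma adjusted p-values were 0.895, 0.739 and 0.987.

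Markers of neurons and glia and of cartilage were set beside these genes. Of 5 neuron and glia markers, Snap25, Rbfox3 and Gfap were dim. Mbp and Syt1 were bright enough to test, and the brightest marker averaged 6.86 over all arrays. List means lay between 3.91 and 4.03 in the wild type group and between 3.87 and 3.98 in the knock-in group. Of 4 cartilage markers, Comp and Matn3 were dim, with list means of 3.79 to 4.08 and 3.87 to 3.97. Col2a1 and Sox5 were bright enough to test, and the brightest of that list averaged 6.55. These list means therefore mix dim and bright markers. Within the matrix family of Ncan and Hapln4, 10 of the 11 fixed partner genes were dim as well, among them Bcan, Vcan, Acan and the hyaluronan synthases. Cd44, a hyaluronan receptor, was the one tested, at -0.10 (SE 0.15, limma adjusted p = 0.869). Cilp, the paralogue of Cilp2, was dim too.

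The promoter window of Ncan (chr8:70120795-70121094, minus strand, GRCm38.p6) is shown as a window of a dim gene, again with CG dinucleotides in capitals.
Ncan: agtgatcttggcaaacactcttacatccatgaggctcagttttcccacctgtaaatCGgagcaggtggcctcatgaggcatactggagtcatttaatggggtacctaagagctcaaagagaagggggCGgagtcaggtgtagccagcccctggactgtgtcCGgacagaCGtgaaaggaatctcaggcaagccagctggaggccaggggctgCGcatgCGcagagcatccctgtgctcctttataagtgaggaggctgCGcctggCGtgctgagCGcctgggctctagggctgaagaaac
It holds 9 CG dinucleotides and was the only window of the neighbours with the letters TATAAA, which 13.6% of all windows hold. RefSeq windows were matched for 9 of the 10 neighbours, 11 windows in all, and the GC box was found in 9 of them and the ETS core in 2, where 8.86% of all windows hold the latter. CG counts did not separate dim from bright genes: Cilp2 and Pbx4 had 18 and 19, Atp13a1 had 17, and the first windows of Gatad2a and Mau2 had 21 each. The second window of Gatad2a had 26, and that of Mau2 had 1, fewer than the window of Ncan. The median over all windows was 7.

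The rest of the neighbourhood was then read from the same fit. Of the 20 protein-coding genes on either side of Tm6sf2, 30 are not among the listed neighbours. Of those 30 genes, 9 had no probe set with their symbol alone, 3 were dim and 18 were tested. Past the threshold were 0 of 18, beside 0.0669% of all tested genes. One gene had an unadjusted p under 0.05, beside 11.3% of all tested genes, and the groups did not overlap in 0 of 18, beside 7.16%. Changes lay above 0 in 15 of 18, with a median of 0.12, beside 51.1% above 0 and a median of 0.0046 over all tested genes. The highest, Zfp964 at 0.33, lay near the dim limit. It met the filter with 1 wild type and 3 knock-in arrays above that limit. Without single arrays the count above 0 was 13 to 15 of 18, with a median of 0.08 without wild type replicate 2, and it stayed at 15 under both other scalings of the arrays. Under these scalings the share above 0 over all tested genes was 52.1% (further quantile normalization) and 58.0% (common array median). The neighbourhood genes share their samples, and their count above 0 was not tested.

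Lpar2, a receptor for lysophosphatidic acid next to Pbx4, had the smallest p of these genes. It read 3.69, 3.39, 3.62 and 3.95 in wild type replicates 1 to 4 and 4.01, 3.98, 3.89 and 4.04 in knock-in replicates 1 to 4. Knock-in replicate 3 lay within the wild type range and the others above it. The Lpar2 change was 0.32 (SE 0.12, limma adjusted p = 0.353), at a level just over the dim limit. Ndufa13, a subunit of respiratory complex I, was at 0.18 (SE 0.09, limma adjusted p = 0.516). Crtc1, a coactivator of CREB near the far end of the window, was at -0.24 (SE 0.12, limma adjusted p = 0.483).

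**Figure D2:**
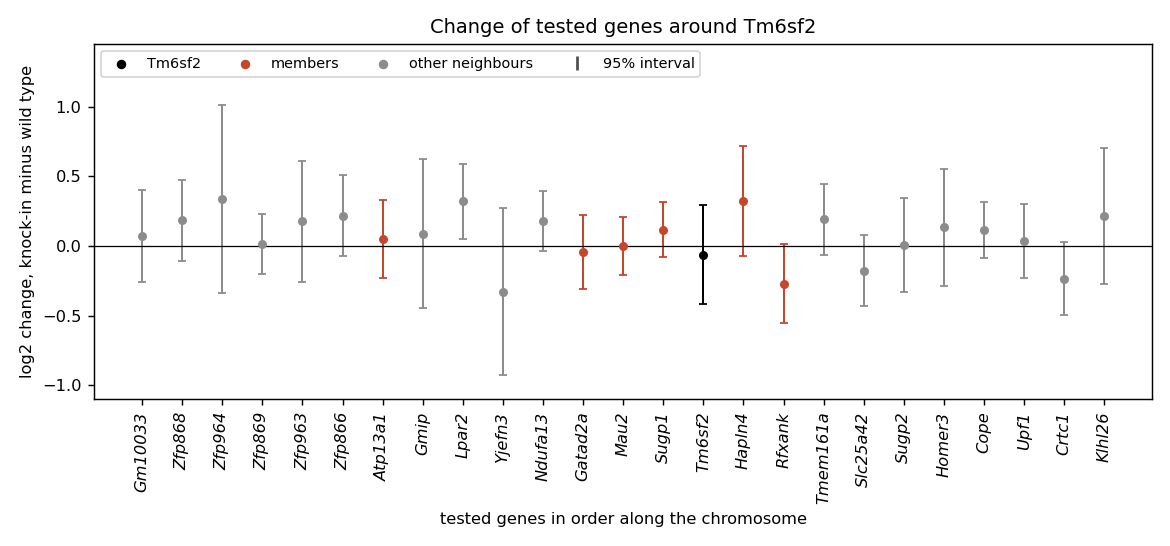
Log2 change (knock-in minus wild type) with 95% intervals for the 25 tested genes of the window around Tm6sf2, placed in gene order and not by distance. Red points are the listed neighbours, black is Tm6sf2 and grey the other genes. Every interval takes in 0 except that of Lpar2, whose adjusted p was 0.353.

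On the whole chromosome that holds Tm6sf2, leaving out Tm6sf2 and its listed neighbours, 677 protein-coding genes were tested. Of these genes 1 passed, Irs2, the docking protein of the insulin receptor, beside 0.0669% of all tested genes. Irs2 fell by 0.75 (SE 0.10, limma adjusted p = 0.0494). It ranked 9 by p, the last of the 9 genes past the threshold among all 13449 tested genes. That count was 2 with no filter. Irs2 was not chosen by the naming rule and lies far from the neighbourhood, with 376 protein-coding genes between it and Tm6sf2. The median change over the 677 genes was 0.03, and 55.1% were above 0.

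The genes that work with the neighbours were taken from fixed lists. Of 68 partner genes, 66 had a value and 52 were tested. Past the threshold were 0 of 52, beside 0.0669% of all tested genes, and 1 had an unadjusted p under 0.05, beside 11.3%. Their median change was -0.04.

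Cohesin and its loader, the partners of Mau2, were at small values, 10 of 12 tested genes below 0 with a median of -0.05. Without wild type replicate 2 the list was even, 6 below and 6 above 0 with a median of -0.0055, and without the other single arrays 8 to 11 of 12 were below 0, with medians from -0.09 (knock-in replicate 3 left out) to -0.03 (knock-in replicate 2 left out). Nipbl, which forms the loader with Mau2, read 9.20, 9.49, 9.09 and 9.27 in wild type and 9.14, 8.83, 9.22 and 9.08 in knock-in replicates, a change of -0.19 (SE 0.12, limma adjusted p = 0.594). Stag1, a core cohesin subunit, was at -0.14 (SE 0.09) and Esco1, which acetylates cohesin, at -0.19 (SE 0.13). The ring subunits Smc1a, Smc3 and Rad21 were at -0.02, -0.03 and 0.03.

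In the NuRD complex, the partners of Gatad2a, all 13 genes were tested and 0 passed, with a median of 0.01. Gatad2b, the paralogue that takes the same place in the complex, was at -0.15 (SE 0.08, limma adjusted p = 0.528). Chd3, one of the remodelling ATPases, read 8.42, 8.41, 8.46 and 8.49 in wild type and 8.54, 8.59, 8.61 and 8.63 in knock-in replicates. The groups of Chd3 did not overlap, but its change of 0.15 (SE 0.07) was small and had a limma adjusted p of 0.472. It was the 1 such gene of the 13, 7.69%, beside 7.16% of all tested genes. With the mean of the 2 Chd3 probe sets the change was 0.22 (SE 0.11, limma adjusted p = 0.510). The other ATPase, Chd4, was at 0.02. Mbd3, which sets NuRD apart from its Mbd2 form, was at 0.40 (SE 0.18, limma adjusted p = 0.452).

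Around Rfxank, 9 genes of the RFX complex and of MHC class II were tested and 0 passed, with a median of -0.07. Leaving out wild type replicate 2 gave a median of -0.22, and leaving out wild type replicate 3, knock-in replicate 2 or knock-in replicate 3 gave -0.039, -0.042 and -0.047. Of the 9 genes, 2 were above 0 and 7 below. The partner subunits Rfx5 and Rfxap were at -0.05 and -0.07, and Ciita, the coactivator that RFX recruits, at -0.16. H2-DMa, H2-DMb1 and H2-DMb2, also of this list, were at 0.08, 0.03 and -0.0033. The class II chains H2-Aa, H2-Ab1 and H2-Eb1 were at -0.23 (SE 0.24), -0.22 (SE 0.21) and -0.16 (SE 0.22), with limma adjusted p of 0.771, 0.755 and 0.847. These 3 values moved with single arrays: they were -0.050, -0.053 and -0.0020 without knock-in replicate 1, and -0.42, -0.37 and -0.32 without wild type replicate 1. With the replicate block the 3 changes stayed the same, with SE of 0.12, 0.13 and 0.12. Their limma adjusted p-values were then 0.573, 0.638 and 0.711. Replicate 1 was the lowest array of its group for all 3 chains in both genotypes. H2-Aa, for example, read 7.33, 7.79, 8.14 and 8.27 in wild type and 7.09, 7.84, 7.86 and 7.80 in knock-in replicates. Class II genes are carried by macrophages, dendritic cells and B cells. In whole liver the number of such cells and the RNA per cell cannot be told apart. The list mean of 6 Kupffer cell and macrophage markers was also lowest in replicate 1 of each group, with ranges of 8.22 to 9.10 for wild type and 8.15 to 8.86 for knock-in liver. For 4 dendritic cell markers the ranges were 4.41 to 4.70 and 4.59 to 4.91, and for the 3 measured B cell markers 4.71 to 5.20 and 4.58 to 5.12. The dendritic cell list mean was lowest in wild type replicate 3 and in knock-in replicate 1. The B cell list mean was lowest in wild type replicate 1 and in knock-in replicate 4. Median changes were 0.06 for the macrophage markers, 0.26 for the dendritic cell markers and -0.08 for the B cell markers. Of these markers 0 were dim and 0 passed, and their part in the class II values was not tested.

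The remaining partners were few. Atp13a2, a lysosomal relative of Atp13a1 that exports polyamines, read 5.10, 5.36, 5.20 and 5.57 in wild type and 5.64, 5.61, 5.67 and 5.54 in knock-in replicates. Knock-in replicates 1 to 3 were above the wild type range. The Atp13a2 change was 0.31 (SE 0.11, limma adjusted p = 0.340). Atp13a3 was at 0.12 (SE 0.10), and Atp13a4 and Atp13a5 were dim. Of 7 tested TALE homeobox genes related to Pbx4, 0 passed, with Meis3, Pbx3 and Meis1 at -0.13, -0.14 and -0.11. Nr2c2 and Nr2c1, the orphan receptors linked to Nr2c2ap, were at 0.12 (SE 0.08) and -0.06 (SE 0.12). Among 6 splicing factors beside Sugp1, U2af1, which reads the end of the intron, was at -0.24 (SE 0.12, limma adjusted p = 0.482), U2af2 at -0.14 (SE 0.10) and Sf1 at -0.04 (SE 0.12). Sf3b1, which Sugp1 contacts, was at 0.02.

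**Figure D3:**
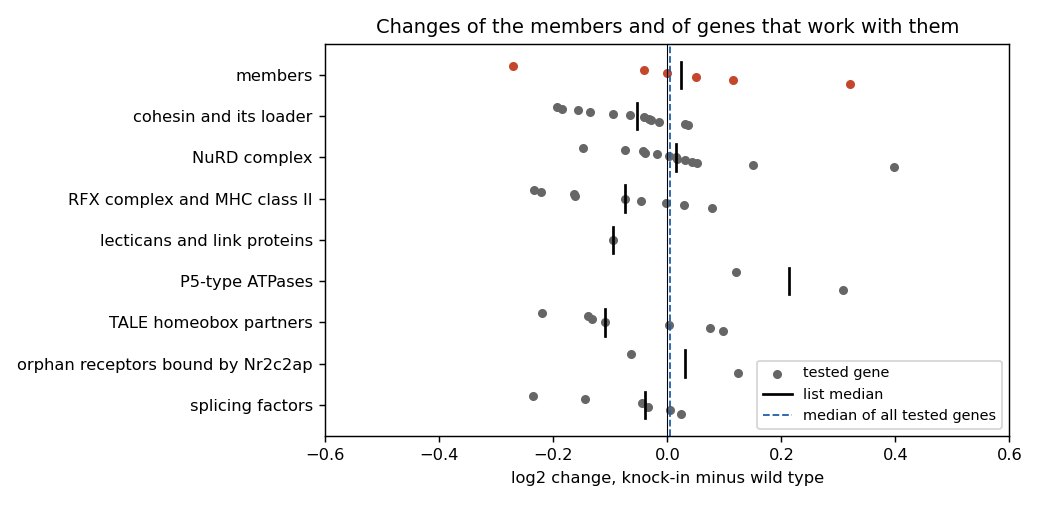
Log2 changes (knock-in minus wild type) of the 6 tested neighbours in red and of the tested genes of 8 partner lists in grey, each point 1 gene, with list medians as black bars and the median of all tested genes as a dashed line. Points of every list lie within 0.40 of 0, and Rfxank and Hapln4 mark the ends of the neighbours' row.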

How the data were processed

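Total liver RNA (400 ng per array) was labelled with the Affymetrix WT Plus kit, per the labels' protocols. Log2 expression values for 41345 probe sets, normalized across arrays by the authors as their near-equal distributions show, were deposited. The submitters' processing notes name RMA and limma, without versions, and for the genome build the sources used here give nothing. RMA equalizes arrays and compresses changes of dim probe sets; arrays have no read depth, and their number limits the precision. Levels of different probe sets are not comparable.

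The platform annotation gave 1 symbol to 23521 probe sets and several to 1814, and 16010 are unnamed here; 23328 matched RefSeq (GRCm38.p6) by Entrez identifier and 0 symbols changed. Each gene was represented by its brightest probe set. Testing required 4 of 8 arrays, of any group, above the array's 40th percentile over single-symbol probe sets, which left 13449 genes. Knock-in and wild type were compared with limma 3.58.1 in R 4.3.3 (lmFit, eBayes, genotype only, two-sided, checked on simulated data). Group values are means ± SD of 4 arrays.

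All neighbours were named, with up to 3 genes of each further list by smallest p; other genes were named to show how a list is made up, after values were seen. Members and lists were chosen with earlier results of these data known. Alternatives were other filters, scalings, priors, array weights, mean probe sets, a replicate block and leaving out each array.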

Additional observations from a re-analysis of the deposited data

Results flagged for a closer look

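Dixon's criterion was applied to 33 genes: Tm6sf2, its measured neighbours and the genes picked from the further lists by smallest p. Other genes named above, Irs2 and Sf3b1 among them, were not examined. In 3 of 66 groups of 4 arrays, 1 array stood far from the other 3, which chance gives in about 1 of 20 groups. None was a gene beside Tm6sf2. Cd44 in wild type replicate 4 read 5.89 against 5.46 in the nearest array. H2-Aa in knock-in replicate 1 read 7.09 against 7.80 in the nearest. Pbx3 in knock-in replicate 4 read 5.60 against 5.12 in the nearest.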

How the results depend on the processing

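The count of neighbours past the threshold was 0 under each of the 17 alternatives, as were the counts for the wider neighbourhood and the partner lists. Of 101 refitted changes of the 6 tested neighbours, 91 kept their sign and 0 passed. Mau2, at -0.00025, turned to 0.028 with a common array median and to 0.00052 with array weights. On leaving out single arrays, Mau2 ran from -0.071 to 0.038, Gatad2a from -0.11 to 0.035, Atp13a1 from -0.023 to 0.14 and Tm6sf2 from -0.16 to 0.064; Cd44 ran from -0.18 to 0.010, Nr2c1 from -0.14 to 0.037 and Sf1 from -0.15 to 0.020. Over all genes the number past the threshold was 9; it was 2 with no filter, 32 with the stricter filter, 15 with a common array median, 75 with a trended prior, 73 with a trended and robust prior, 25 with array weights, 24 with the mean of probe sets and 1 to 12 without single arrays. The stricter filter tests fewer genes and also changed the standard errors of the genes it kept. The cause was not tested for any of these counts. Over all tested genes same-numbered arrays did not pair: deviations correlated at -0.11 to 0.10, and 1 of 4 wild type arrays correlated best with its own number. Single genes could differ from this. The 3 class II chains and the macrophage list mean were lowest in replicate 1 of both groups. For H2-Aa the SE was 0.24 without the replicate block and 0.12 with it. With the replicate block the count was 2, and 0 neighbours passed. The limit is set by 4 arrays a group, and for Ncan, Cilp2 and Pbx4 by signal near the floor.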

Other observations

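Mau2 had a very narrow knock-in spread. Its 4 knock-in arrays spanned 0.012 on the log2 scale, and of 13449 tested genes 2, Mau2 included, had a knock-in SD of 0.0054 or less, where the median knock-in SD was 0.16. In wild type arrays the Mau2 SD was 0.15, close to the median of 0.18. How often a group of 4 would be this tight among so many genes was not worked out, and the difference in spread was not tested.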
